A study of Mus musculus with 18 samples.

Results

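The 10 genes described here are markers of lipid-associated macrophages: Trem2, Tyrobp, Gpnmb, Spp1, Cd9, Lgals3, Fabp5, Mmp12, Atp6v0d2 and Apoe. They were picked by name from 25124 genes in each deposited count table, with earlier results of these data known. Bulk RNA was sequenced in 18 libraries, with 3 per genotype in each of 3 fat depots: the inguinal (iWAT) and the epididymal (eWAT) white fat, and brown fat (BAT). All animals were male mice on a C57BL/6J background. The groups were wildtype (WT) mice and mice lacking caspase-6 in the whole body (C6KO), both obtained from crosses of heterozygous parents. All of them were kept for 12 weeks on a high fat diet in which fat supplied 60% of calories, started at 10 to 14 weeks of age, so there was no lean group. The deletion was present in every tissue and not limited to macrophages, and whether libraries of different depots came from the same animals is not given in the sources used here. Because whole depots were sequenced, fewer macrophages and less of a transcript per macrophage cannot be told apart in any value below. The depot labels went with 7 brown adipocyte genes, whose summed level was 6430 to 14904 CPM in BAT (counts scaled to a common library total) and 15.2 to 71.1 CPM in the white depots.

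Lipid-associated macrophages gather around lipid-laden and dying adipocytes in obese fat, where they take up and break down lipid. TREM2 is a surface receptor for lipids and lipoproteins, and it signals through the adaptor DAP12, the product of Tyrobp, which recruits the kinase SYK. The state is recognised by a set of genes for lysosomal proteins, lipid carriers and secreted matrix factors, several of which other cells of the depot also make: adipocytes express Apoe, and Fabp5 and Cd9 are found in adipocytes and endothelial cells.

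The deposited counts are given per kept transcript on mm10, and the stretch just before the start of that transcript was taken from RefSeq promoters on GRCm38.p6, the assembly with the same coordinates. Entries were found for 7 of the 10 genes. Tyrobp, Fabp5 and Atp6v0d2 had none. The 250 bases upstream of the start are printed for Trem2, Mmp12 and Lgals3, all called lower in C6KO BAT, and for Apoe, which was not. Capitals mark TGANTCA, an AP-1-like pattern searched on both strands. N stands for any base, so the pattern is broader than the AP-1 core. Trem2 is at chr17:48346151-48346400 on the plus strand, Mmp12 at chr9:7347124-7347373 on the plus strand, Lgals3 at chr14:47373610-47373859 on the plus strand, and Apoe at chr7:19699189-19699438 on the minus strand.
Trem2: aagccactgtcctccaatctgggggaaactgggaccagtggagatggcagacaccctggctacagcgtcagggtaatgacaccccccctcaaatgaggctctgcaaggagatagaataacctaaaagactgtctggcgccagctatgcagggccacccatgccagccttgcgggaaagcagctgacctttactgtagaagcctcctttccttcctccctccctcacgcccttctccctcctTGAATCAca
Mmp12: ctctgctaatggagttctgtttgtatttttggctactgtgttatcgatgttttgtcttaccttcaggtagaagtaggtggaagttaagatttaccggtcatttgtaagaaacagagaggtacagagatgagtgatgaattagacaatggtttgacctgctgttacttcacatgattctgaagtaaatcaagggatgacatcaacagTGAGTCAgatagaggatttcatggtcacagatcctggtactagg
Lgals3: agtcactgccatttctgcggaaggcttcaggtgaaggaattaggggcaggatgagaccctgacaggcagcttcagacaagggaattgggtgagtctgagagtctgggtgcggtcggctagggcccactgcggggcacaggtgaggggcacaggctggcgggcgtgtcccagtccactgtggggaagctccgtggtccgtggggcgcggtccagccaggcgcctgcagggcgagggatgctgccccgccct
Apoe: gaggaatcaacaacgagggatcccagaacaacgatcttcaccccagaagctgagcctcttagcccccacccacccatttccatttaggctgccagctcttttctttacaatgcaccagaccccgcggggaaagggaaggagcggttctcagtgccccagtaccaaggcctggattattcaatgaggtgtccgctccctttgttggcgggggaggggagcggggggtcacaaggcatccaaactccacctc
The Trem2 window held TGAATCA from -9 to -3 and the Mmp12 window TGAGTCA from -44 to -38, counted back from the start. The windows of Lgals3, Gpnmb and Spp1, also called lower in BAT, did not hold it, nor did those of Cd9 and Apoe. The motif was thus in 2 of the 7 windows and in 6.75% of 32851 mouse promoter windows of the same length. CACGTG, the E-box core read by MiT/TFE lysosomal factors, was in 0 of the 7 windows and in 6.02% of all windows. GAGGAAGT, an ETS motif of the PU.1 type, was in 1 of the 7, that of Spp1, and in 2.44% of all. In all, 10 letter patterns were searched on both strands, several of them nested in one another, and they were chosen with the results known. Of the other 7, TCATGTG, a letter pattern of MITF-type E-boxes, was in the Mmp12 window and in 3.25% of all windows, and its longer form TCATGTGA was in the same window and in 0.846% of all. GAGGAA, the shorter ETS core, was in 3 of the 7 windows, those of Trem2, Spp1 and Apoe, and in 23.3% of all. TGANTCAT, TCACGTGA, the palindromic CLEAR element and TTNCGCAA were in 0 of the 7, and in 2.83%, 0.785%, 0.240% and 0.670% of all windows in that order. A match is a description of the sequence only.

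Obese WT mice expressed the 10 genes in all 3 depots, at levels that differed by depot. Per transcript length, as TPM (length-scaled counts set to a common total), Apoe, a lipid carrier, stood highest in each depot, with 4724 ± 449.5 TPM in iWAT, 5329 ± 519 in eWAT and 1733 ± 89.8 in BAT (SD, n = 3 WT libraries). Spp1, which encodes the secreted matrix protein osteopontin, stood lowest, with 24.7 ± 9.11 TPM in iWAT, 257 ± 111 in eWAT and 13.3 ± 4.94 in BAT. Trem2 was 7th of the 10 in iWAT, 5th in eWAT and 8th in BAT. Its WT mean was 213 ± 31.7 TPM in iWAT, 990 ± 89.3 in eWAT and 38.9 ± 13.1 in BAT. Some neighbours in these orders had overlapping WT libraries and were not separated. In iWAT these were Tyrobp with Fabp5, Fabp5 with Gpnmb, and Cd9 with Trem2. In eWAT they were Tyrobp with Gpnmb, Trem2 with Mmp12, Mmp12 with Cd9, and Atp6v0d2 with Fabp5. In BAT they were Fabp5 with Tyrobp, Cd9 with Gpnmb, Gpnmb with Mmp12, and Mmp12 with Trem2. The kept transcript of Spp1 was 1466 bases long in the iWAT and eWAT tables and 1414 bases in the BAT table, so its BAT level counts partly different exons.

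**Figure D1:**
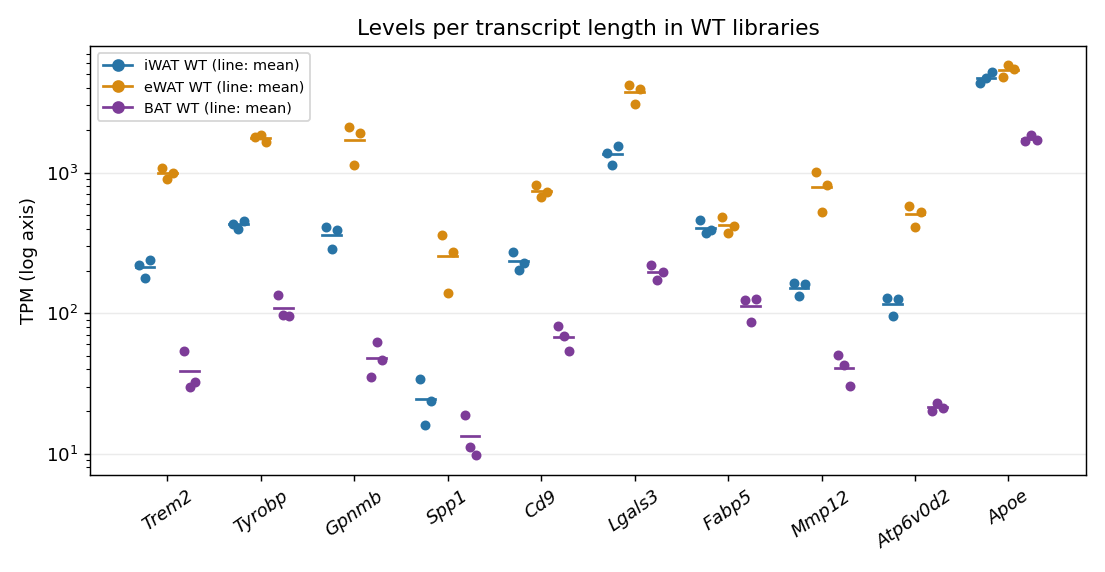
Levels of the 10 genes per transcript length in the 9 WT libraries, in TPM on a log axis, with points for libraries, lines for the mean of 3 and colours for depots. The eWAT points of Trem2, Spp1, Gpnmb and Mmp12 lie above the iWAT and BAT points, whereas those of Apoe and Fabp5 in eWAT and iWAT lie close together.

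In WT mice, 8 of the 10 genes were higher in eWAT than in iWAT by edgeR's quasi-likelihood test, where 12.8% of all 15866 genes tested were called higher (a gene is called where the Benjamini-Hochberg adjusted p is under 0.05 and the fold change reaches 1.5). Spp1 differed by 9.47-fold (adjusted p = 0.000522), Mmp12 by 4.70-fold, Gpnmb by 4.33-fold and Trem2 by 4.24-fold (adjusted p = 0.028 for Trem2). The call of Trem2 was lost without any single WT library of either depot (adjusted p from 0.0562 to 0.0926 by edgeR) and that of Lgals3 without 5 of the 6, which left 6 or 7 of the 8. Apoe, with a log2 difference of 0.04 ± 0.16 (SE), and Fabp5, with -0.07 ± 0.20, did not pass. In WT BAT, 9 genes were lower than in iWAT, where 18.7% of all genes were called lower, and all 10 were lower than in eWAT, where 23.6% were. Gpnmb showed the widest gap of the 10, 26.6-fold between eWAT and BAT, and Apoe the narrowest, 2.25-fold. Spp1 in BAT against iWAT was the exception, with a log2 difference of -0.61 ± 0.54 (adjusted p = 0.379). Of the 9 called lower in BAT than in iWAT, Mmp12 did not pass with no filter on low counts (adjusted p = 0.0588 by edgeR), and leaving out single libraries left 7 to 9, with Mmp12 or Trem2 the genes lost. General macrophage genes differed between depots in the same order. The summed level of 12 of them, scaled within each depot, was 7010 to 9412 CPM in WT eWAT, 1866 to 2177 in iWAT and 768 to 994 in BAT.

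The question of the main comparison was which of these genes differ between C6KO and WT mice in each depot. Casp6 itself was lower in all C6KO libraries than in any WT library of its depot. In BAT, 7 of the 10 genes were called lower in C6KO mice, where 1.07% of 13595 genes tested were called lower. In iWAT and eWAT 0 of the 10 were called, against 0.0206% of 14533 and 0.208% of 14889 genes called lower. None was called higher in any depot, as 0.169% of all genes were in BAT, 0.00688% in iWAT and 0.537% in eWAT. At an unadjusted p under 0.05 in the same direction, 9 of the 10 were lower in BAT (8.64% of all genes), 6 in iWAT (9.29%) and 3 in eWAT (7.82%). DESeq2 called 8 of the 10 lower in BAT (2.07% of all genes), 1 in iWAT, namely Cd9 (2.66% of all genes), and 0 in eWAT (0.964% of all genes). Its shares are over 18804, 19004 and 19599 genes in that order of depots, more low genes than edgeR tested, so the 2 tools' shares are not directly comparable. All C6KO libraries lay below all WT libraries for 8 genes in BAT (12.1% of all genes), 7 in iWAT (12.2%) and 3 in eWAT (11.2%). The median log2 fold change of the 10 was -2.73 in BAT, -1.48 in iWAT and -0.21 in eWAT, beside medians of -0.03, 0.03 and -0.01 over all genes tested.

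**Figure D2:**
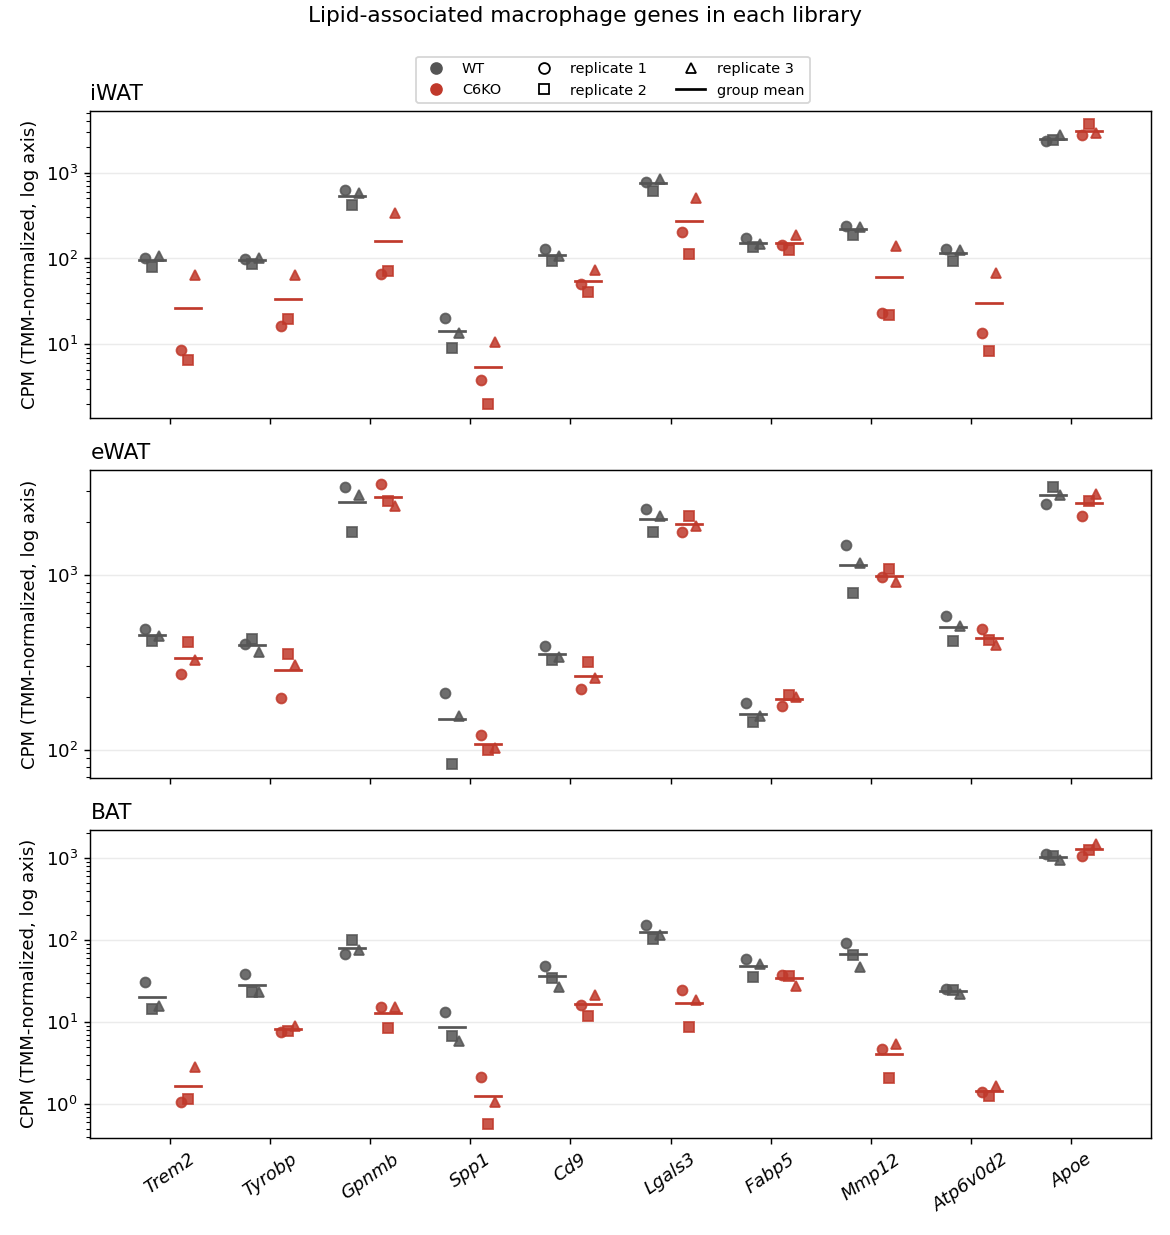
Expression of the 10 genes in each library, in TMM-normalized counts scaled to a common library total (CPM) on a log axis, with 1 panel per depot. Grey points are WT and red points C6KO libraries, marker shapes give the replicate number, and lines are means of 3. In BAT the genotypes are apart for 8 genes, and in iWAT the third C6KO library lies between the other C6KO libraries and the WT libraries for most genes.

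**Figure D3:**
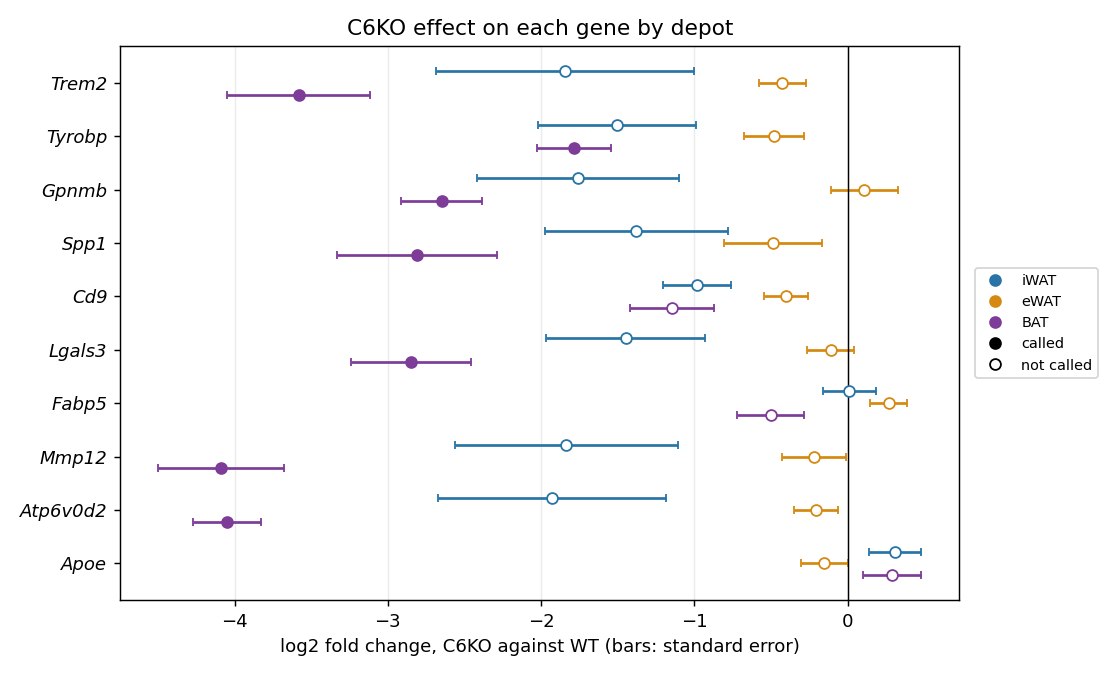
Log2 fold changes of C6KO against WT with standard errors from edgeR, for the 10 genes in 3 depots, with 3 libraries per genotype. Filled points passed the test and all 7 of them are in BAT, from Tyrobp at -1.79 to Mmp12 at -4.09.

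The receptor and its adaptor were both lower in C6KO BAT. Trem2 stood at 30.8, 14.6 and 15.8 CPM in the WT libraries of BAT and at 1.06, 1.16 and 2.82 CPM in the C6KO libraries. All C6KO values were well under the lowest WT value, and the C6KO libraries held 9, 14 and 29 counts, so the remaining level carries large counting error. The log2 fold change was -3.58 ± 0.47 (SE, adjusted p = 0.0132 by edgeR). Tyrobp had 38.1, 23.4 and 23.0 CPM in WT and 7.69, 7.70 and 9.05 CPM in C6KO BAT. Its groups were apart, and the log2 fold change came to -1.79 ± 0.24 (adjusted p = 0.011 by edgeR). Neither gene stayed called in every fit that left out a single BAT library, as given below.

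In iWAT, Trem2 had 100.2, 78.6 and 107.6 CPM in WT mice and 8.52, 6.66 and 64.6 CPM in C6KO mice. Both lower C6KO libraries were far under the WT range, while the third was close to it. With that spread the log2 fold change of -1.84 ± 0.84 did not pass (adjusted p = 0.34 by edgeR). Tyrobp showed the same layout, with 98.2, 86.7 and 101.1 CPM in WT and 16.3, 19.6 and 64.9 CPM in C6KO iWAT (log2 fold change -1.5 ± 0.52, adjusted p = 0.236 by edgeR). In eWAT, where both genes were most abundant, Trem2 had 489, 416 and 445 CPM in WT and 272, 411 and 323 CPM in C6KO mice. The ranges met almost at their edges, and the log2 fold change was -0.42 ± 0.15 (adjusted p = 0.189 by edgeR). Tyrobp in eWAT had a log2 fold change of -0.48 ± 0.20 (adjusted p = 0.248 by edgeR).

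The lysosomal gene Atp6v0d2 encodes a subunit of the proton pump that acidifies lysosomes. It had 25.1, 24.5 and 22.3 CPM in WT BAT and 1.42, 1.24 and 1.65 CPM in C6KO BAT. The C6KO libraries held 12, 15 and 17 counts, so the remaining level and the fold carry large counting error. Both groups were tight, and of the 10 genes Atp6v0d2 had the smallest adjusted p (log2 fold change -4.05 ± 0.22, 16.6-fold lower, adjusted p = 0.000102 by edgeR). In iWAT it had 127.3, 92.7 and 124.1 CPM in WT and 13.7, 8.36 and 68.4 CPM in C6KO mice, with the third C6KO library again nearest to WT. The iWAT log2 fold change was -1.93 ± 0.75 (adjusted p = 0.275 by edgeR). In eWAT the groups overlapped, at 579, 416 and 508 CPM against 487, 421 and 394 CPM (log2 fold change -0.21 ± 0.14).

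Among the secreted products, Mmp12, the macrophage elastase, had the lowest log2 fold change of the 10 in BAT. Its WT libraries held 91.8, 66.3 and 47.2 CPM and its C6KO libraries 4.73, 2.07 and 5.35 CPM. All C6KO values were far under the WT range, and the log2 fold change was -4.09 ± 0.41 (17.0-fold lower, adjusted p = 0.0096 by edgeR). Lgals3 encodes galectin-3, a lectin that binds damaged lysosomes and glycoproteins. It had 154.8, 102.2 and 116 CPM in WT and 24.7, 8.61 and 18.7 CPM in C6KO BAT, with no overlap and a log2 fold change of -2.85 ± 0.39 (adjusted p = 0.0271 by edgeR). Spp1 had 13.4, 6.79 and 5.90 CPM in WT and 2.13, 0.58 and 1.07 CPM in C6KO BAT, again without overlap. It rested on 7 to 18 counts per C6KO library, and its log2 fold change of -2.81 ± 0.52 was nearest to the threshold among those called (adjusted p = 0.0417 by edgeR).

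In iWAT the third C6KO library was again the highest of its group for all 3 of these genes. Mmp12 had 23.4, 22 and 138.6 CPM in C6KO iWAT beside 187 to 239 CPM in WT, Lgals3 205, 113 and 504 CPM beside 616 to 849.7 CPM, and Spp1 3.87, 2.02 and 10.6 CPM beside 9.09 to 20.1 CPM. Only Spp1 overlapped with WT. The log2 fold changes were -1.83 ± 0.73 for Mmp12, -1.45 ± 0.52 for Lgals3 and -1.38 ± 0.60 for Spp1, with adjusted p of 0.281, 0.252 and 0.315 by edgeR. In eWAT all 3 overlapped between genotypes, with log2 fold changes of -0.22 ± 0.21, -0.11 ± 0.15 and -0.49 ± 0.32. The WT libraries of eWAT varied more for Spp1 (83.0 to 211 CPM) than the C6KO libraries did (99.1 to 121 CPM).

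Gpnmb and Cd9 encode membrane proteins, the first a glycoprotein of lysosome-rich macrophages and the second a tetraspanin found on many cell types. Gpnmb had 66.9, 100.6 and 74.9 CPM in WT and 15.3, 8.45 and 15.1 CPM in C6KO BAT. The groups did not overlap (log2 fold change -2.65 ± 0.27, adjusted p = 0.00423 by edgeR). In iWAT it had 619.7, 416.8 and 577 CPM in WT and 65.8, 72.0 and 339.7 CPM in C6KO mice, with the third C6KO library again nearest to WT (log2 fold change -1.76 ± 0.66, adjusted p = 0.265 by edgeR). In eWAT it was at 3168, 1749 and 2837 CPM in WT and 3279.8, 2631 and 2461 CPM in C6KO mice, fully intermixed, with a log2 fold change of 0.11 ± 0.22. Cd9 had 47.8, 35 and 27.2 CPM in WT and 16.2, 11.8 and 21.7 CPM in C6KO BAT. Its groups were apart, but it missed the threshold in edgeR (log2 fold change -1.15 ± 0.27, adjusted p = 0.0924) and passed it in DESeq2 (adjusted p = 0.00761). Its iWAT log2 fold change of -0.98 ± 0.22 likewise passed only in DESeq2, with 129, 93.1 and 106 CPM in WT against 50.9, 41.0 and 74.1 CPM in C6KO libraries (adjusted p = 0.154 by edgeR and 0.00237 by DESeq2). In eWAT its log2 fold change was -0.40 ± 0.14 (adjusted p = 0.185 by edgeR).

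The lipid carriers Apoe and Fabp5 were not called in any depot. Apoe had 1118, 1048 and 962 CPM in WT and 1075, 1262 and 1488 CPM in C6KO BAT, so the genotypes overlapped (log2 fold change 0.29 ± 0.19, adjusted p = 0.562 by edgeR). Its log2 fold change was 0.31 ± 0.17 in iWAT and -0.15 ± 0.15 in eWAT. Fabp5, a fatty acid binding protein, had 58.9, 35.3 and 50.7 CPM in WT and 37.7, 36.8 and 27.7 CPM in C6KO BAT, with overlapping ranges and a log2 fold change of -0.50 ± 0.22 (adjusted p = 0.363 by edgeR). In iWAT its log2 fold change was 0.01 ± 0.17 and in eWAT 0.27 ± 0.12, neither past the threshold.

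The third C6KO library of iWAT decided the iWAT result. Without it, 8 of the 10 genes were called lower there, all but Fabp5 and Apoe, with log2 fold changes from -1.27 for Cd9 to -3.67 for Trem2, and 6.43% of all genes were called lower in that fit. The adjusted p of Trem2 in iWAT ran from 7.94e-05 without that library to 0.571 over the other settings tried. The same library had the highest summed CPM of 5 hepatocyte genes in iWAT, 235 against 10.3 to 45.3 in the other 5, and 1422 CPM over the pan-macrophage genes against 512 and 566 in the other C6KO libraries. The part of either in the result was not tested. In BAT the count of 7 fell to 3 without the first C6KO library (0.252% of all genes), to 4 without the second (0.194%) and to 4 without the third (0.173%), and it was 5 without the first or the third WT library (0.517% and 0.553%). Tyrobp was lost without any single C6KO library (adjusted p from 0.0669 to 0.0862 by edgeR), and Trem2 without the first or the second (0.0769 and 0.107). Spp1 was lost in each of these fits, Lgals3 without the third C6KO or either WT library, and Mmp12 without the first C6KO library. Only Gpnmb and Atp6v0d2 stayed called throughout. The second WT library of BAT held 29026 CPM over 6 skeletal muscle genes and 106 CPM over 10 lymphocyte genes. For muscle this stood beside 36.3 and 1278 CPM in the other WT libraries and 340 to 5687 CPM in C6KO, and for lymphocytes beside 4.06 to 10.3 CPM in the other BAT libraries. Without it the count was again 7 of 10 (1.05% of all genes).

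Whether the C6KO effect differs from depot to depot was tested in a single edgeR fit of all 18 libraries, so that each depot enters 2 of the 3 contrasts. The fit took libraries of different depots as independent, and whether they shared animals is not given. Between BAT and eWAT, 0 of the 10 genes passed, where 0.536% of 15866 genes did. At an unadjusted p under 0.05 and a 1.5-fold difference, 8 of the 10 were lower in BAT, beside 6.79% of all genes. The closest were Atp6v0d2, with a log2 difference of -3.85 ± 0.86, and Lgals3, with -2.75 ± 0.62 (adjusted p = 0.0655 for each by edgeR). DESeq2 called 4 of the 10, Gpnmb, Lgals3, Mmp12 and Atp6v0d2, where 1.73% of its 20483 genes were called. Between BAT and iWAT, 0 passed in edgeR and 0 in DESeq2 (0.183% and 0.835% of all genes), and 3 were lower in BAT at an unadjusted p under 0.05 and a 1.5-fold difference (4.3% of all genes). Without the third C6KO library of iWAT, the log2 difference between BAT and iWAT turned from -1.75 to 0.065 for Trem2 and from -0.90 to 0.32 for Gpnmb. Between eWAT and iWAT, 0 passed in either tool (0.0% and 0.0683% of all genes), and 3 were higher in eWAT by the unadjusted criteria (3.02% of all genes). Without the third C6KO library of iWAT, 6 of the 10 passed between eWAT and iWAT, in edgeR: Trem2, Tyrobp, Gpnmb, Lgals3, Mmp12 and Atp6v0d2. In that fit 1.49% of all genes passed.

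General macrophage genes had lower summed levels in C6KO mice too. Over 12 pan-macrophage genes, the summed level in BAT was 768 to 994 CPM in WT and 337 to 482 CPM in C6KO libraries, and the groups did not overlap in iWAT (1866 to 2177 against 512 to 1422 CPM) or eWAT (7010 to 9412 against 4076 to 5780 CPM). Of the 12, 3 were called lower in BAT, 0 in iWAT and 1 in eWAT by edgeR, while DESeq2 called 8, 6 and 6, and 8, 10 and 11 had an unadjusted p under 0.05 in edgeR. Over all genes, DESeq2 called 2.07%, 2.66% and 0.964% lower, and 8.64%, 9.29% and 7.82% were lower at such a p. The 3 called in BAT by edgeR were Adgre1, which encodes the macrophage marker F4/80 (log2 fold change -1.79), C1qc, a complement component (-1.20), and Lyz2, lysozyme (-1.40). Medians of the 12 were -1.07 in BAT, -1.38 in iWAT and -0.65 in eWAT. Over 12 genes of resident macrophages, such as Folr2, 0 were called in any depot by edgeR and the medians were -0.24, -0.43 and -0.22. DESeq2 called 2, 4 and 1 of them lower and 1 higher in eWAT, and 2, 6 and 4 were lower at an unadjusted p under 0.05 in edgeR. Their summed level was lower in C6KO without overlap in iWAT (528 to 718 against 829 to 980 CPM) and eWAT (1283 to 1610 against 1880 to 2138 CPM). In BAT it overlapped. The lowest and highest of the 12 pan-macrophage genes were Adgre1 and the efferocytosis receptor Mertk (0.32) in BAT, Adgre1 (-1.69) and Mertk (-0.29) in iWAT, and Aif1 (-1.77) and Mertk (0.02) in eWAT. Those of the resident genes were Folr2 (-1.14) and Cd163 (0.52), Folr2 (-1.33) and Mgl2 (0.13), and Retnla (-1.31) and Lyve1 (0.88). The median of the lipid-associated genes was thus below that of the pan-macrophage genes in BAT, close to it in iWAT and above it in eWAT.

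Markers of other cell types also stood at different summed levels in the genotypes. The summed level of 7 progenitor genes was lower in all C6KO than in all WT libraries of each depot, at 721 to 923 against 1129 to 1699 CPM in BAT, 1813 to 3275 against 4642 to 4806 in iWAT and 5556 to 6514 against 6844 to 8613 in eWAT. That of 9 adipocyte genes was higher in C6KO without overlap in iWAT (36300 to 38556 against 26479 to 30257 CPM) and eWAT (15712 to 19874 against 11169 to 13091 CPM), and overlapped in BAT. That of 6 endothelial genes was higher without overlap in eWAT (827 to 998 against 607 to 696 CPM) and BAT (1150 to 1160 against 819 to 1024 CPM), and overlapped in iWAT. The sum of 5 mast cell genes was lower without overlap in eWAT (115 to 169 against 236 to 346 CPM). In BAT it was likewise lower (24.9 to 32.6 against 33.4 to 61.3 CPM), and in iWAT the groups overlapped. The sum of 5 hepatocyte genes was higher without overlap in eWAT (23.1 to 70.4 against 3.61 to 10.2 CPM), and overlapped in iWAT and BAT. By edgeR, 1 progenitor gene was called lower in BAT and 0 in the white depots, 2 adipocyte genes were called higher in eWAT and 1 lower in BAT, and 0 endothelial genes were called. In eWAT 2 mast cell genes were called lower and 1 hepatocyte gene higher, with 0 of either list called in iWAT or BAT. The part of these cell types in the lower macrophage levels was not tested.

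To set each gene against the macrophage genes of its own library, its CPM plus 0.5 was divided by the summed CPM of the 12 pan-macrophage genes. That sum was lower in C6KO libraries, and the ratio was accordingly higher for most genes: the median log2 change over all genes tested was 1.05 in BAT, 1.46 in iWAT and 0.62 in eWAT. In BAT, the ratio of 7 lipid-associated genes was lower in all C6KO libraries than in any WT library, which held for 0.662% of all genes. The 7 were those called lower. With Adgre1 alone as denominator, 4 remained below (0.125% of all genes), namely Trem2, Lgals3, Mmp12 and Atp6v0d2, and the log2 change of the Tyrobp ratio was 0.08. The ratio of Mmp12 was -3.43, -3.52 and -4.14 on the log2 scale in WT and -6.53, -7.04 and -6.20 in C6KO BAT, a 7.41-fold lower mean. That of Trem2 was -4.99, -5.66 and -5.69 in WT and -8.27, -7.67 and -7.02 in C6KO BAT, 4.60-fold lower, and that of Atp6v0d2 was 6.04-fold lower. Tyrobp moved least of the 7, at 1.54-fold. The libraries overlapped for Cd9 (log2 change -0.06). For each of the 7 the exact two-sided permutation p was 0.1, the smallest that 3 against 3 libraries allow.

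In iWAT, 0 of the 10 ratios were lower in every C6KO library (0.303% of all genes), and in eWAT 0 were (0.235% of all genes). Both iWAT C6KO libraries other than the third had Trem2 ratios of -5.83 and -6.30, beside -4.21 to -4.70 in WT, and the third had -4.45. Without it, 5 of the 10 iWAT ratios lay below every WT ratio (0.53% of all genes), and 5 did so without the second WT library (0.544%). The ratio was higher in every C6KO library for 2 genes in iWAT and 2 in BAT, Apoe and Fabp5 in both, and for 4 in eWAT, namely Gpnmb, Lgals3, Fabp5 and Apoe. This was the usual case, since it held for 79.9%, 78.5% and 63.3% of all genes.

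**Figure D4:**
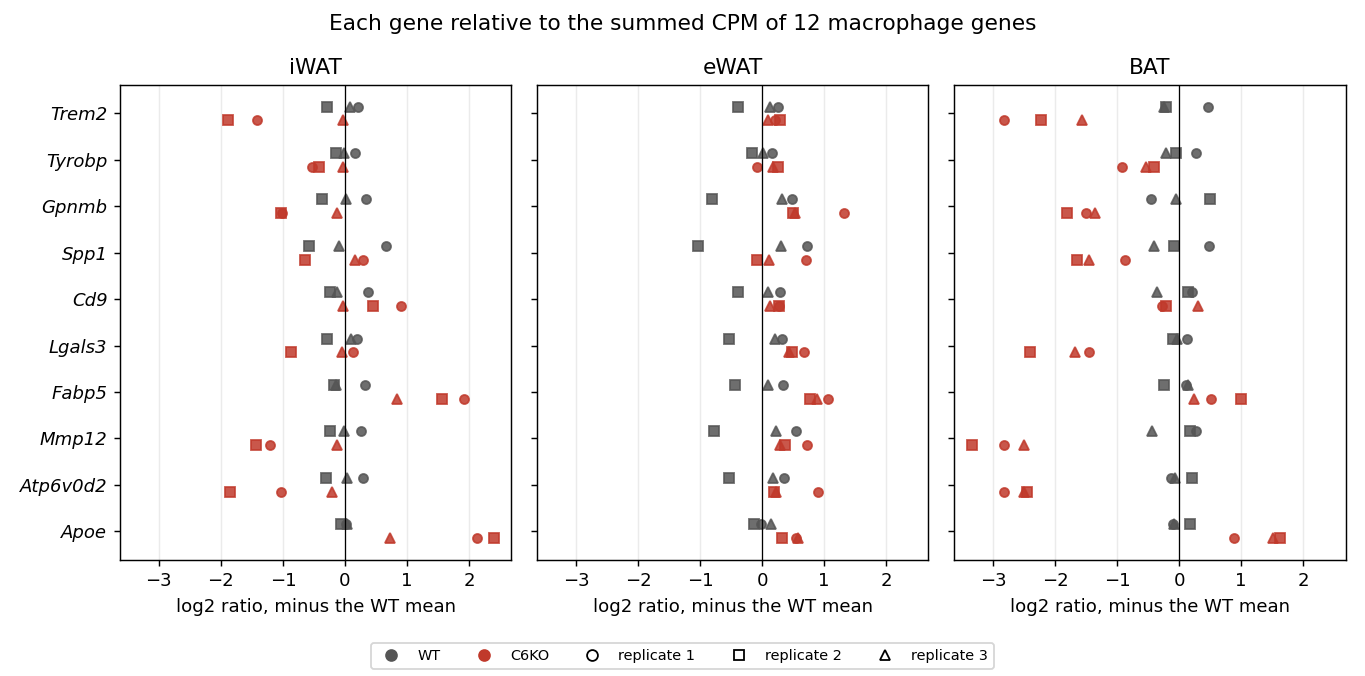
The log2 ratio of each gene to the summed CPM of 12 pan-macrophage genes, minus the mean of the 3 WT libraries of the depot, with 1 point per library. In BAT, 7 genes have all red C6KO points left of all grey WT points, and Apoe and Fabp5 lie to the right in C6KO libraries of each depot.

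In BAT, other genes of the state and of the pathway had medians nearer to 0 than the 10 genes did. Of 25 further genes of the lipid-associated state, 24 were tested in BAT and 5 were called lower: Itgax, which encodes the integrin CD11c (log2 fold change -3.17), Cd84, a leukocyte surface receptor (-2.59), Cd68, a lysosomal glycoprotein of macrophages (-2.01), Capg, an actin-capping protein (-1.65), and Anxa2, an annexin of many cell types (-1.38). In iWAT and eWAT 0 of the 25 were called, while 13 and 7 had an unadjusted p under 0.05 and a lower value in C6KO (9.29% and 7.82% of all genes). The medians were -0.35 in BAT, -0.56 in iWAT and -0.11 in eWAT. In BAT the lysosomal genes Ctsb, Ctsd and Npc2 had log2 fold changes of -0.25, -0.22 and -0.09 and did not pass, and Lpl and Cd36, which adipocytes express strongly, had 0.39 and -0.35. The highest estimates were those of the cathepsin gene Ctsz in BAT (0.85) and the acid phosphatase gene Acp5 in iWAT (0.48) and eWAT (0.50), and the lowest in the white depots those of Itgax in iWAT (-1.96) and Cxcl16 in eWAT (-0.78).

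Of 16 genes of TREM2 and DAP12 signalling, 14 were tested in BAT and 16 in each white depot, and 0 were called in any of them by edgeR. Unadjusted p-values under 0.05 with a lower value in C6KO were found for 10 in BAT, 12 in iWAT and 9 in eWAT (8.64%, 9.29% and 7.82% of all genes). DESeq2 called 4, 7 and 1 lower (2.07%, 2.66% and 0.964% of all genes). The medians were -1.01, -1.01 and -0.42. Syk, the kinase that docks on DAP12, had log2 fold changes of -1.04 in BAT, -1.0 in iWAT and -0.15 in eWAT, and Plcg2, the phospholipase downstream of it, -0.99, -1.14 and -0.25. Adam10 and Adam17, the proteases that shed TREM2 from the surface, were nearer to 0, at -0.14 and -0.18 in BAT. The lowest estimates in the white depots were those of the adaptor Hcst in iWAT (-1.74) and Sirpb1a in eWAT (-0.89). Every estimate of the 16 was below 0 in the white depots, as was every one of the 14 in BAT. The other TREM family genes were little detected, with 2 of 5 tested in iWAT, 3 of 5 in eWAT and 0 in BAT.

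Of 15 regulators and effectors of the macrophage lipid response, 14 were tested in BAT and 1 was called lower, Soat1, which esterifies cholesterol for storage (log2 fold change -1.56, adjusted p = 0.041 by edgeR). Nceh1, a cholesteryl ester hydrolase, had -1.63 and missed the threshold in edgeR (adjusted p = 0.0618) but passed it in DESeq2 (adjusted p = 0.000213). In iWAT, DESeq2 called Soat1 (log2 fold change -1.60, adjusted p = 0.000581), which edgeR did not (adjusted p = 0.168). Nr1h3 and Pparg, nuclear receptors for oxysterols and fatty acids that adipocytes also express, had 0.31 and 0.25 in BAT, and the sterol exporters Abca1 and Abcg1 had 0.10 and -0.25. Ppard was highest in BAT, at 0.52. By edgeR 0 of the 15 were called in iWAT and eWAT, with estimates from -1.70 (Nceh1) to 0.49 (Nr1h3) and from -0.37 (Mitf) to 0.30 (Pparg). The list medians were 0.08, -0.13 and 0.01 in BAT, iWAT and eWAT.

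**Figure D5:**
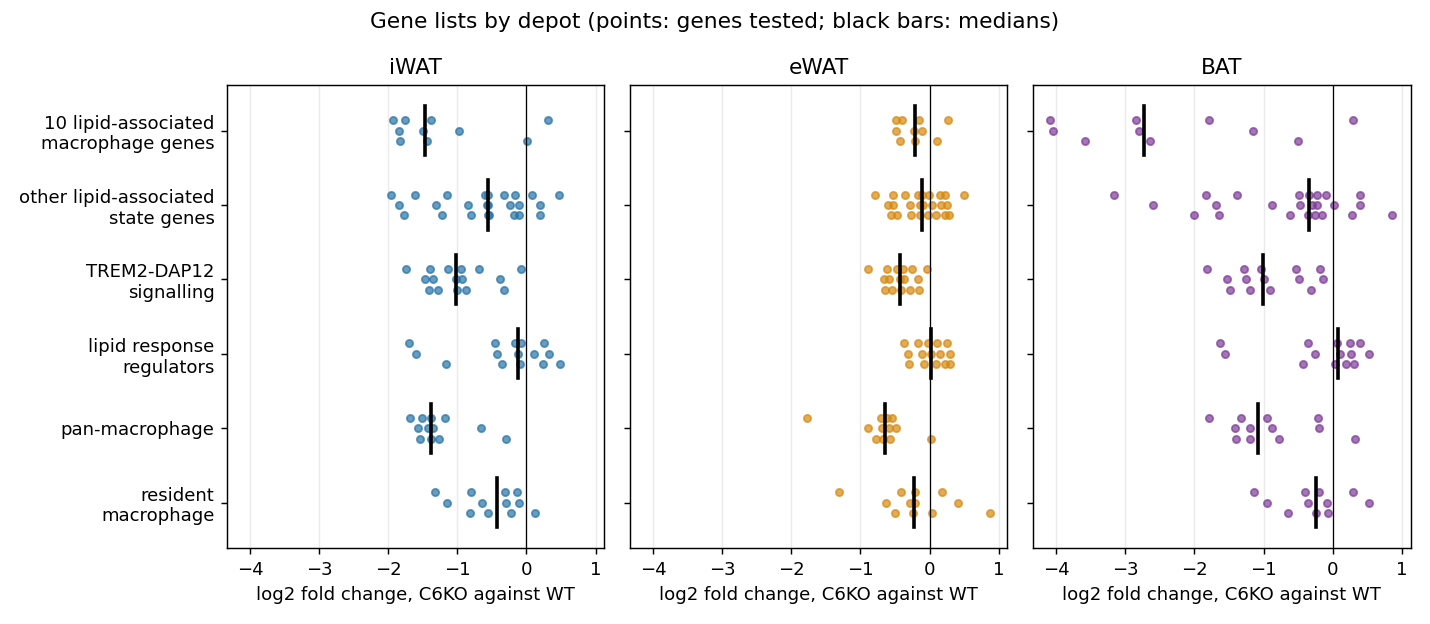
Log2 fold changes of C6KO against WT for the genes of 6 lists, with 1 point per gene tested, 1 panel per depot and black bars for list medians. In BAT the median of the 10 lipid-associated genes, -2.73, lies left of the other medians, of which the pan-macrophage list is lowest at -1.07, and in eWAT the pan-macrophage median, -0.65, is the lowest.

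Genes that varied with Trem2 were ranked by Pearson's r over the 18 libraries, on log2 CPM with each depot's mean removed, among 12890 genes. The first 5 were Cd84 (0.986), Capg (0.983), the chemokine Ccl9 (0.982), Cd300c2 (0.976) and the leukocyte tetraspanin Cd53 (0.976). Of the other 9 lipid-associated genes, Atp6v0d2 ranked 7, Mmp12 9, Tyrobp 15, Lgals3 31, Gpnmb 46, Cd9 57 and Spp1 130. Several pan-macrophage genes stood among them: Adgre1 ranked 44, Itgam 52, Lyz2 78, C1qb 120 and C1qc 132, and the other 7 of the 12 ranked from 215 to 6096. Fabp5 ranked 1771 and Apoe 10922, with an r of -0.44. The libraries share genotype and depth, so this order describes these samples only.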

How the data were processed

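The authors aligned poly(A) reads (Illumina NextSeq) to mm10 with STAR at default settings and counted reads on exons with HOMER, keeping 1 transcript per gene. They deposited whole-number counts without normalization, in 1 table per depot. Versions, annotation and strandedness are not given in the sources used here. The kept transcript differed between tables for 2619 genes. None of the 10 genes overlapped another gene in the tables. Library totals ran from 16506034 to 19139694 counts in the white depots and from 7803108 to 12428683 in BAT, so values of low genes carry more counting error in BAT.

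From these counts, edgeR 4.0.16 in R 4.3.3 (filterByExpr, TMM, robust quasi-likelihood) compared 3 C6KO with 3 WT libraries in each depot, over all genes tested. A call needed a Benjamini-Hochberg adjusted p under 0.05 and a 1.5-fold change. Contrasts between depots used all 18 libraries in 1 fit, taken as independent, and those of the C6KO effect had no fold minimum. TPM came from the counts and the exon length of the kept transcript. Alternatives were DESeq2 1.42.0, other scalings and filters, all libraries in 1 fit, the replicate number as a block, other denominators and pseudocounts for the ratio, and leaving out each library in turn. Groups and replicate numbers come from the sample titles, and p-values measure the spread between libraries. On simulated data for the BAT comparison (13698 genes), edgeR recovered 93.5% of 200 genes given a log2 change of 2, and 3.11% of its calls were false. For the effect in BAT against eWAT (15496 genes) it recovered 80%, and 4.19% of its calls were false. The simulation gave every gene the same relative spread, changed only genes above a minimum mean count and held no deviating library. These shares need not hold for the real libraries.

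The 10 genes and all lists were chosen with earlier results of these data known. Named genes were the 10 themselves, Casp6, the 5 genes most correlated with Trem2 and, in each list and depot, the genes called and the lowest and highest. Other list genes named for their role were chosen after their values were seen, as were the motifs and the test of the ratio between depots. Body and depot weights were not analysed here. Some list genes that this rule would name are not reported here.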

Additional observations from a re-analysis of the deposited data

Results flagged for a closer look

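Gpnmb and Lgals3 were singled out because their ratio to the 12 pan-macrophage genes moved one way in every C6KO library of BAT and the opposite way in every C6KO library of eWAT. The log2 ratio of Gpnmb changed by -1.56 in BAT and 0.78 in eWAT, a difference of -2.34. That of Lgals3 changed by -1.84 in BAT and 0.53 in eWAT, a difference of -2.37. For both, exact relabelling of genotypes within each depot gave p = 0.005, the smallest that 400 relabellings of this kind gave, and 0.075 after Benjamini-Hochberg adjustment over 30 such tests, so neither passed the correction. This test and this choice were made after seeing the data. Genotypes that are fully apart in opposite directions in both depots give this p by construction, so it adds no support to the choice. A higher ratio in every C6KO library of eWAT was common to 63.3% of all genes there, since the summed pan-macrophage level was lower in C6KO mice. The fold changes of the genes themselves in eWAT, 0.11 for Gpnmb and -0.11 for Lgals3 on the log2 scale, did not pass.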

How the results depend on the processing

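With 3 libraries per group a single library could decide a count. Leaving out each library in turn gave 0 to 8 lipid-associated genes called lower in iWAT, 0 in eWAT and 3 to 7 in BAT. For the further state genes iWAT gave 0 to 14 calls, eWAT 0 to 2 (2 without the second C6KO library) and BAT 3 to 6 (3 without any 1 of the C6KO libraries), and for TREM2 and DAP12 signalling from 0 to 11 in iWAT. The iWAT maxima of 8, 14 and 11 all came without the third C6KO library, as did the 6 genes whose effect differed between eWAT and iWAT (range 0 to 6). Without that library 6.43% of all genes were called lower in iWAT, and 1.49% differed in effect. Ratios below every WT ratio in iWAT ran from 0 to 5, with 5 also without the second WT library, and ratios above in eWAT from 4 to 7 (7 without the first WT library). With all libraries 63.3% of all genes in eWAT already lay above, a share that leaving out a library cannot lower. In WT mice, 6 or 7 genes were called between eWAT and iWAT, and 7 to 9 between BAT and iWAT. With all libraries, 12.8% of all genes were called higher in eWAT than in iWAT, and 18.7% lower in BAT than in iWAT.

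DESeq2 called 1 lipid-associated gene in iWAT, 4, 1 and 8 further state genes in iWAT, eWAT and BAT, and 7, 1 and 4 signalling genes, and it called 4 lipid-associated genes for a different effect in BAT and eWAT. Over all genes it called 505, 189 and 389 lower in iWAT, eWAT and BAT, where edgeR called 3, 31 and 145. With all 18 libraries in 1 fit, 4 further state genes and 5 signalling genes were called in iWAT and 4 signalling genes in BAT. The share of all genes called lower in that fit is not given here. With Adgre1 alone as denominator, 4 ratios were below every WT ratio in BAT.

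Some estimates changed sign, most of them near 0. For Fabp5 in iWAT, total counts as scaling gave -0.051, and leaving out libraries gave -0.19 to 0.14. Between eWAT and iWAT in WT mice Fabp5 gave 0.074 with total counts and -0.18 to 0.04 without single libraries, and Apoe -0.029 to 0.12. In eWAT, Gpnmb ran from -0.11 to 0.29 and Mmp12 from -0.43 to 0.017. For the effect in BAT against iWAT, Apoe gave 0.031 with total counts and -0.16 to 0.11 without single libraries, Tyrobp -0.63 to 0.62 and Cd9 -0.43 to 0.10. Trem2 (-2.36 to 0.065) and Gpnmb (-1.27 to 0.32), at -1.75 and -0.90 with all libraries, changed sign only without the third C6KO library of iWAT.

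Libraries of like number in WT and C6KO mice did not deviate together in all pairs: the correlation ran from 0.022 to 0.037 in iWAT, from -0.10 to 0.16 in eWAT and from -0.60 to -0.24 in BAT, so the numbers were not taken as pairs. With the replicate number as a block, 2 signalling genes were called in iWAT, 1 further state gene in eWAT and 1 lipid-associated gene, Lgals3, for a different effect in BAT and eWAT, and Fabp5 in iWAT gave -0.0039. The share of all genes called with this block is not given here. The cause of these changes was not tested.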
